A study of Mus musculus with 19 samples.

Results

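The integrated stress response in mouse liver was followed through 10 of its genes: Eif2ak3, Ppp1r15a, Atf4, Atf5, Cebpb, Ddit3, Trib3, Chac1, Asns and Sesn2. They were taken by symbol from a table of expression values with 55335 entries, 52110 of which carry a gene name, and each of the 10 was found once. All samples are liver of mice whose genotype is labelled WT. The mice ate normal chow (NC) or CDAHFD, a high-fat diet that lacks choline and supplies defined amino acids, which is used to produce steatohepatitis. Each diet group was split between remote limb ischemic conditioning (RIC), in which blood flow to a limb is stopped and restored, and a sham procedure. On NC there were 5 sham and 5 RIC samples, and on CDAHFD 5 sham samples and 4 with RIC. The labels give no strain, sex, age, time on diet or number of conditioning sessions, nor do they tie each sample to an animal of its own, so a p-value here speaks of the scatter among the samples, which may be technical.

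The integrated stress response is started by kinases that phosphorylate the translation initiation factor eIF2, which lowers protein synthesis overall while a few messages, among them those of ATF4, ATF5 and CHOP, are translated more. ATF4 and its partners then raise genes for amino acid supply, redox balance and, when stress lasts, cell death, and some of their targets turn the response off. Because ATF4 is controlled mainly at translation and eIF2 by phosphorylation, RNA levels show the transcribed part of the pathway only. In fatty liver disease the pathway is studied because lipid overload and shortage of nutrients both reach it.

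Expression is given in FPKM, fragments per kilobase of transcript scaled to the mapped fragments of a sample, so levels of different genes can be set side by side. Differences are on the log2(FPKM + 1) scale, which understates changes of genes near 1 FPKM, and folds are ratios of mean FPKM. Tests used limma over the 10577 genes whose mean level reached 1 FPKM, and a gene is said to have risen or fallen where its adjusted p is under 0.05. Of the 10 genes 9 reached that level. Chac1, with a mean of 0.635 FPKM over the 19 samples, was tested in a fit without the filter.

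By estimate each sample held between 15.9 and 26.4 M reads, and the sum of FPKM ran from 418945 to 443297 in CDAHFD RIC, below the 441294 to 495052 of CDAHFD sham except for an overlap at the edge. Among the lists of cell type markers, that of hepatocytes had the highest summed FPKM in every sample. On NC, 11 of the 12 listed markers summed to 41697 to 52678 FPKM in sham and 57092 to 68200 FPKM in RIC samples, with no overlap. On CDAHFD they summed to 33849 to 40461 FPKM in sham and 35583 to 47315 FPKM in RIC samples. Of the 11, 7 were lower in CDAHFD sham than in NC sham, beside 10.3% of all genes tested. After RIC 1 was higher and 0 were lower on NC, and 3 were higher and 2 lower on CDAHFD. Of all genes tested 0.321% were higher and 0.86% lower after RIC on NC. On CDAHFD 8.72% were higher and 18.6% lower after RIC. Macrophage markers summed to 64.4 to 119 FPKM on NC and to 664 to 1377 FPKM on CDAHFD. Of their 13 tested genes 13 were higher in CDAHFD sham than in NC sham, beside 63.9% of all genes tested. Between CDAHFD sham and CDAHFD RIC the macrophage sums overlapped (911 to 1253 against 664 to 1377 FPKM). In that comparison 4 of 9 stellate cell and fibroblast markers were lower after RIC, beside the 18.6% of all genes. The part of this change of cell markers in the levels below was not tested, and in whole liver fewer cells of a type and less RNA per cell cannot be told apart. Samples 2 and 5 of CDAHFD sham stood apart from the other 3 on the fourth principal component (20.6 and 16.6 against -9.3 to -3.8), which held 2.26% of the variance. They were not alone. NC sham sample 3 stood apart on the same component (-12.2 against 1.65 to 3.98) and CDAHFD RIC sample 1 on the third (10.1 against -7.46 to -3.21). Calls of named genes that were lost or gained without CDAHFD sham samples 2 and 5 are given beside the result.

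Among the 10 genes the transcription factors Atf5, Cebpb and Atf4 were the most abundant, and Ddit3 was not among these. Atf5 had the highest mean level in every group, from 53.2 ± 17.8 FPKM (SD, n = 5) in NC RIC to 98.8 ± 18.3 (SD, n = 5) in CDAHFD sham, followed by Cebpb and then Atf4. Sample values of Atf5 and Cebpb overlapped in each group other than NC sham, whereas Cebpb and Atf4 did not overlap in any group. The remaining 7 genes lay far lower, between 0.275 and 11.1 FPKM by group mean. Their order by group mean changed with the group. Below Atf4 came Ddit3 in both sham groups and Asns in both RIC groups, while Chac1 had the lowest mean throughout. In every group the sample values of the gene below Atf4 overlapped those of the next gene. Which of them came first is therefore not resolved. Chac1 overlapped Eif2ak3 in NC RIC. In NC sham the ranges of neighbours in the order Ddit3, Asns, Ppp1r15a, Trib3, Sesn2 and Eif2ak3 overlapped, so their order there is not resolved.

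**Figure D1:**
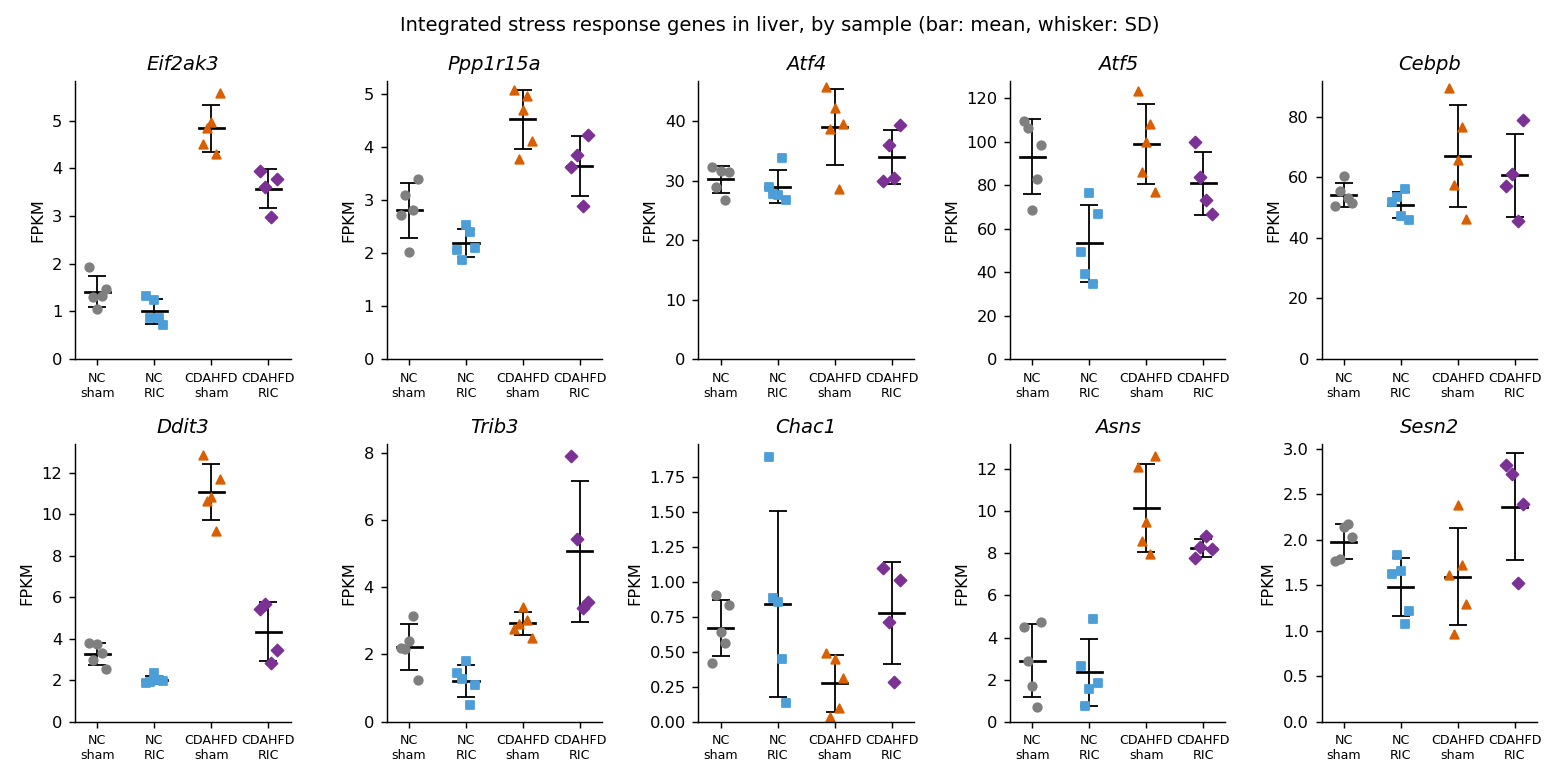
FPKM of the 10 integrated stress response genes (vertical axes, each starting at 0) in the sham and RIC samples of either diet, with 1 point per sample, the group mean as a bar and the SD as a whisker. Ddit3 and Eif2ak3 are highest in CDAHFD sham, Asns is high in both CDAHFD groups, and Trib3 is highest in CDAHFD RIC.

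The first comparison asked what the diet does in sham-treated mice. Ddit3, Eif2ak3 and Asns were each more than 3-fold higher in CDAHFD sham than in NC sham, with no overlap between the groups. Ppp1r15a and Atf4 rose by less, and Atf5, Cebpb, Trib3 and Sesn2 did not pass the test. In all, 5 of the 9 tested genes rose and none fell at an adjusted p under 0.05, and the other 4 did not pass at an unadjusted p under 0.05 either. The background is large: 63.9% of all genes tested rose, 10.3% fell, and in 59.3% the groups did not overlap, against 4 of the 9 here. The median difference of the 9 genes was 0.34, beside 0.45 for all genes tested. Their share and their median therefore lay near the background. How many of all genes tested differed as much as Ddit3, Eif2ak3 and Asns was not counted.

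Eif2ak3 encodes PERK, the kinase that phosphorylates eIF2 when the endoplasmic reticulum is under stress (chromosome 6, 70844515 to 70905245, plus strand, mm10). Its level was 1.93, 1.30, 1.05, 1.32 and 1.48 FPKM in the NC sham samples. In CDAHFD sham it was 4.51, 4.84, 4.96, 4.29 and 5.59 FPKM. Every CDAHFD sample lay above every NC sample. The means were 1.42 ± 0.325 and 4.84 ± 0.495 FPKM (SD, n = 5 each), a 3.42-fold difference (log2 difference 1.28, 95% interval 1.06 to 1.5, adjusted p = 2.9e-09).

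Ppp1r15a encodes GADD34, which brings a phosphatase to eIF2 and so reverses the kinases' action (chromosome 7, 45522916 to 45526268, minus strand). It measured 2.71, 3.09, 2.01, 2.80 and 3.4 FPKM in NC sham and 5.08, 3.77, 4.69, 4.96 and 4.11 FPKM in CDAHFD sham. The groups did not overlap, although the highest NC and the lowest CDAHFD sample were close. The 1.61-fold difference (log2 difference 0.54, SE 0.11, adjusted p = 1.4e-04) was near the median of all genes, and after the samples were scaled to equal medians of gene ratios it was 0.09 (adjusted p = 0.49).

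Atf4, the central transcription factor of the response (chromosome 15, 80255184 to 80257541, plus strand), measured 32.3, 28.9, 31.5, 26.8 and 31.4 FPKM in NC sham. It measured 45.7, 38.7, 42.2, 28.6 and 39.5 FPKM in CDAHFD sham. Of the CDAHFD samples 4 lay above all NC samples and the fifth lay within their range. The difference was 1.29-fold (log2 difference 0.34, SE 0.11, adjusted p = 0.0091). Its direction depends on the scaling: relative to the typical gene, Atf4 differed by -0.23 (adjusted p = 0.089) after median-ratio scaling.

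Ddit3 encodes CHOP, a transcription factor tied to cell death under prolonged stress (chromosome 10, 127290774 to 127296288, plus strand). In NC sham it measured 3.79, 2.96, 3.76, 3.30 and 2.52 FPKM. In CDAHFD sham it measured 12.9, 10.7, 10.9, 9.21 and 11.7 FPKM. The lowest CDAHFD sample was more than 2 times as high as the highest NC sample. The means, 3.27 ± 0.540 and 11.1 ± 1.35 FPKM (SD, n = 5 each), differed 3.38-fold (log2 difference 1.5, 95% interval 1.22 to 1.78, adjusted p = 1.0e-08).

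Asns encodes asparagine synthetase, a classical ATF4 target that makes asparagine (chromosome 6, 7675169 to 7693254, minus strand). Its NC sham values were the most scattered of the 10 genes in that group, at 4.52, 2.87, 1.69, 0.717 and 4.74 FPKM. In CDAHFD sham it measured 12.1, 8.60, 9.51, 7.98 and 12.6 FPKM. All CDAHFD samples lay above all NC samples. The difference was 3.49-fold (log2 difference 1.63, 95% interval 1.0 to 2.26, adjusted p = 7.5e-05). Ddit3, Eif2ak3 and Asns passed the test under each of 9 other ways of processing and with each of the 10 samples left out in turn.

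The other 5 genes did not pass. Atf5, a relative of ATF4 linked to stress of mitochondria, ran from 68.5 to 109.6 FPKM in NC sham and from 76.6 to 123 FPKM in CDAHFD sham, so the ranges largely coincided (log2 difference 0.09, adjusted p = 0.70). Median-ratio scaling gave Atf5 a difference of -0.49 (adjusted p = 0.031), the opposite sign. Cebpb, a transcription factor of liver metabolism and the acute phase response and a partner of CHOP, ran from 50.5 to 60.5 and from 46.2 to 89.5 FPKM (log2 difference 0.27, adjusted p = 0.11). Its CDAHFD samples spread on both sides of the NC range, and without CDAHFD sham samples 2 and 5 it passed (0.50, adjusted p = 0.0041). At the lower end of the other ways of processing the Cebpb difference turned to -0.31.

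Trib3 is a pseudokinase induced by ATF4 and CHOP that restrains ATF4 and AKT signalling. It ran from 1.23 to 3.15 FPKM in NC sham and from 2.49 to 3.42 FPKM in CDAHFD sham (log2 difference 0.30, 95% interval -0.10 to 0.71, adjusted p = 0.16). The Trib3 difference turned to -0.23 at the lower end of the other ways of processing. Sesn2, which holds back mTORC1 and helps against oxidants, ran from 1.77 to 2.18 and from 0.965 to 2.38 FPKM (log2 difference -0.22, adjusted p = 0.15). Chac1, an enzyme that degrades glutathione, ran from 0.417 to 0.903 and from 0.0303 to 0.488 FPKM (log2 difference -0.40, adjusted p = 0.14 in the fit without a filter). Sesn2 and Chac1 were thus the members with means below those of NC sham. After median-ratio scaling Sesn2 differed by -0.58 (adjusted p = 6.0e-04) and Chac1 by -0.56 (adjusted p = 0.049). Chac1 rests on an estimated 1 to 65.9 reads per sample, with a median of 18.

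**Figure D2:**
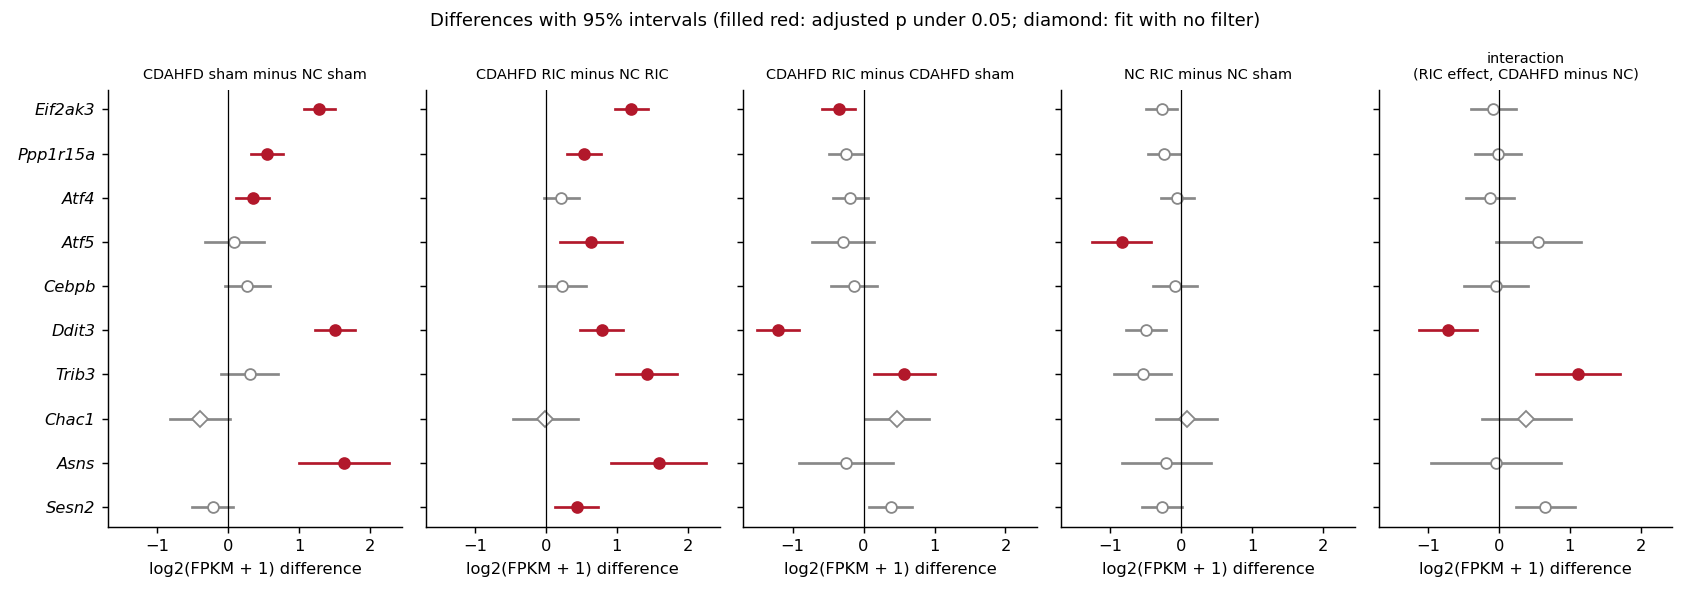
Log2(FPKM + 1) differences of the 10 genes (horizontal axis) with 95% intervals in each comparison, in 5 panels. Filled red symbols passed at an adjusted p under 0.05, and the diamond is Chac1 from the fit without a filter. Ddit3 lies at 1.5 for diet in sham mice and at -1.21 for RIC on CDAHFD, while Trib3 lies at 0.30 and 0.57.

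The second comparison asked what RIC does in mice on CDAHFD. Ddit3 was 2.54-fold lower in CDAHFD RIC than in CDAHFD sham and Eif2ak3 was 1.35-fold lower, while Trib3 was 1.74-fold higher. Thus 2 of the 9 tested genes fell and 1 rose. The balance depends on the scaling, with 2 higher and 1 lower after median-ratio scaling and 2 of each after quantile normalization, and without CDAHFD sham samples 2 and 5 it was 0 higher and 2 lower. Among all genes tested 18.6% fell, 8.72% rose and 18.4% had groups that did not overlap, as did 2 of the 9. The median of the 9 genes was -0.25, beside -0.08 for all genes. The CDAHFD sham samples of this comparison are the same as those of the first, so a high value in that group raises the diet difference and lowers the RIC difference together.

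Ddit3 measured 5.43, 5.66, 2.83 and 3.47 FPKM in the CDAHFD RIC samples. Even the highest of these lay well under the lowest CDAHFD sham sample, 9.21 FPKM. The group mean of 4.35 ± 1.41 FPKM (SD, n = 4) gave a log2 difference of -1.21 (95% interval -1.5 to -0.91, adjusted p = 2.9e-05). Ddit3 kept this call under 9 other ways of processing and with each of 9 samples left out, and without CDAHFD sham samples 2 and 5 the difference was -1.19 (adjusted p = 2.1e-04).

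Eif2ak3 measured 3.93, 3.61, 2.99 and 3.77 FPKM in CDAHFD RIC. These values all lay under the CDAHFD sham samples, by a small margin. The log2 difference was -0.35 (95% interval -0.58 to -0.12, adjusted p = 0.025). It passed in 5 of 9 other ways of processing and in 6 of 9 fits with 1 sample left out. Without CDAHFD sham samples 2 and 5 the difference was -0.29 (adjusted p = 0.090), without sample 3 it was -0.34 (adjusted p = 0.052), without sample 5 -0.31 (adjusted p = 0.060) and without CDAHFD RIC sample 3 -0.29 (adjusted p = 0.090).

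Trib3 went the other way, at 7.90, 5.43, 3.39 and 3.57 FPKM in CDAHFD RIC. Of these 3 lay above every CDAHFD sham sample, and sample 3, at 3.39 FPKM, lay just under the highest of them. The log2 difference was 0.57 (95% interval 0.15 to 1.0, adjusted p = 0.044). This call is weak: it held in 3 of 9 other ways of processing and in 2 of 9 fits with 1 sample left out. Without CDAHFD RIC sample 1 the difference was 0.37 (adjusted p = 0.18), and without CDAHFD sham samples 2 and 5 it was 0.52 (adjusted p = 0.12). Leaving out any 1 of the 5 CDAHFD sham samples gave an adjusted p of 0.054 to 0.082, and leaving out CDAHFD RIC sample 2 gave 0.10.

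Sesn2 measured 2.83, 2.72, 1.52 and 2.39 FPKM in CDAHFD RIC, with 3 samples above all CDAHFD sham samples, and missed the threshold (log2 difference 0.38, 95% interval 0.08 to 0.68, adjusted p = 0.056), which it passed in 3 of 9 other ways of processing. It also passed without CDAHFD sham sample 3 (0.48, adjusted p = 0.020) or CDAHFD RIC sample 3 (0.51, adjusted p = 0.018). Chac1 measured 1.10, 0.716, 0.283 and 1.01 FPKM there (log2 difference 0.47, adjusted p = 0.19 without a filter). In Trib3, Sesn2 and Chac1 sample 3 was the lowest of the CDAHFD RIC group, as it also was in Ddit3, Eif2ak3, Ppp1r15a and Cebpb. Asns was tight in this group, at 7.77, 8.29, 8.82 and 8.19 FPKM, at the lower end of the CDAHFD sham range (log2 difference -0.25, 95% interval -0.92 to 0.42, adjusted p = 0.59).

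The differences of Ppp1r15a (-0.25, adjusted p = 0.099), Atf4 (-0.19, adjusted p = 0.25), Atf5 (-0.28, adjusted p = 0.32) and Cebpb (-0.13, adjusted p = 0.55) were negative and did not pass. Their CDAHFD RIC values ran from 2.88 to 4.22 FPKM for Ppp1r15a, from 29.9 to 39.4 for Atf4, from 66.8 to 99.6 for Atf5 and from 45.6 to 78.8 for Cebpb. Each of these 4 ranges overlapped that of CDAHFD sham. Without CDAHFD sham samples 2 and 5, Ppp1r15a passed (-0.36, adjusted p = 0.037). Among the 4 transcription factors Ddit3 alone passed, and the 95% interval of Atf4 ran from -0.43 to 0.06.

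The third comparison asked what RIC does on normal chow. Atf5 was the 1 gene of the 9 that passed, 1.75-fold lower in NC RIC, and none rose. Over all genes tested 0.86% fell and 0.321% rose, and in 4.75% the groups did not overlap, as in 1 of the 9 here. The differences of the 9 genes were all negative, with a median of -0.27 beside -0.06 for all genes, but Atf4 and Cebpb turned to 0.05 and 0.02 at the upper end of the other ways of processing.

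Atf5 measured 109.6, 106, 68.5, 82.9 and 98.3 FPKM in NC sham and 49.4, 39.0, 76.1, 34.6 and 66.8 FPKM in NC RIC. Of the NC RIC samples 4 lay under all NC sham samples and the other lay within their range. The log2 difference was -0.84 (95% interval -1.25 to -0.43, adjusted p = 0.046). It passed in 4 of 9 other ways of processing and in 4 of 10 fits with 1 sample left out, where the adjusted p ran from 0.028 to 0.13. The call was lost without NC sham sample 1, 2 or 5 and without NC RIC sample 1, 2 or 4. Ddit3 measured 1.88, 1.90, 2.34, 2.03 and 1.96 FPKM in NC RIC, all under the NC sham samples, and yet missed the threshold (log2 difference -0.49, 95% interval -0.77 to -0.21, adjusted p = 0.080).

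Trib3 measured 1.45, 1.27, 1.79, 0.492 and 1.09 FPKM in NC RIC, a range that overlapped NC sham (log2 difference -0.54, adjusted p = 0.16). Eif2ak3 ran from 0.71 to 1.32 FPKM, Ppp1r15a from 1.87 to 2.53 FPKM and Sesn2 from 1.08 to 1.83 FPKM, with differences of -0.27 (adjusted p = 0.20), -0.25 (adjusted p = 0.25) and -0.27 (adjusted p = 0.33). None of these 4 passed, and their NC RIC ranges each reached into the NC sham range. Atf4 ran from 26.7 to 33.7, Cebpb from 46.0 to 56.0, Asns from 0.766 to 4.88 and Chac1 from 0.135 to 1.89 FPKM, the widest relative spread of Chac1 in any group (SD 78.7% of the mean).

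The fourth comparison set CDAHFD RIC against NC RIC, the diet in conditioned mice. It shares its samples with both RIC comparisons. Of the 9 genes 7 were higher and none was lower, against 63.6% of all genes higher and 6.68% lower. The groups did not overlap for 5 of the 9, beside 58% of all genes. Asns was 3.53-fold higher (log2 difference 1.59, adjusted p = 2.2e-04), Eif2ak3 3.58-fold (1.20, adjusted p = 2.4e-08) and Ddit3 2.15-fold (0.79, adjusted p = 8.5e-05). Trib3 was 4.16-fold higher, with every CDAHFD RIC sample above every NC RIC sample (log2 difference 1.42, 95% interval 0.99 to 1.85, adjusted p = 6.3e-06).

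Atf5 (0.64, adjusted p = 0.011), Ppp1r15a (0.54, adjusted p = 3.6e-04) and Sesn2 (0.43, adjusted p = 0.012) also passed, and their differences lay close to the all-gene median of 0.42. After median-ratio scaling those of Atf5 (0.08), Ppp1r15a (0.12) and Sesn2 (0.07) no longer passed, whereas Asns (1.15), Trib3 (1.05), Eif2ak3 (0.84) and Ddit3 (0.37) did. Quantile normalization gave Ddit3 a difference of 0.28 (adjusted p = 0.10) and turned Sesn2 to -0.08. Atf4 (0.22, adjusted p = 0.11) and Cebpb (0.23, adjusted p = 0.20) did not pass, and median-ratio scaling turned Atf4 to -0.33 (adjusted p = 0.026). In both diet comparisons Eif2ak3 and Asns thus kept a positive call under each scaling tried.

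Whether the RIC difference depends on the diet was tested with the interaction, the RIC difference on CDAHFD minus that on NC. Over all genes 3.59% were positive and 3.13% negative at an adjusted p under 0.05. Of the 9 genes 1 was positive, Trib3, and 1 negative, Ddit3. For Trib3 the RIC difference was -0.54 on NC and 0.57 on CDAHFD, an interaction of 1.12 (95% interval 0.53 to 1.71, adjusted p = 0.023). It passed in 7 of 8 other ways of processing and in 18 of 19 fits with 1 sample left out, the exception being CDAHFD RIC sample 2 (1.07, adjusted p = 0.05). For Ddit3 both differences were negative, -0.49 and -1.21, and the interaction was -0.72 (95% interval -1.13 to -0.31, adjusted p = 0.035). It passed in 4 of 8 other ways of processing and in 10 of 19 fits with 1 sample left out, where the adjusted p ran up to 0.068. The call was lost without NC sham sample 2 or 5, NC RIC sample 2 or 3, CDAHFD sham sample 1, 3 or 5, or CDAHFD RIC sample 3 or 4. Sesn2 had a positive interaction of 0.65 that missed the threshold (adjusted p = 0.053).

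On CDAHFD Ddit3 fell after RIC and Trib3 rose, the latter by a weak call, while on NC both differences were negative. The pair was also set against each other in each sample. This ratio was chosen after their values had been seen and is given here without a test. Ddit3 over Trib3 in FPKM was 1.72, 1.37, 1.56, 1.05 and 2.06 in NC sham. It was 1.30, 1.5, 1.30, 4.12 and 1.80 in NC RIC, where the high value belongs to the sample with the lowest Trib3. In CDAHFD sham it was 4.67, 3.66, 3.17, 3.04 and 4.70, and in CDAHFD RIC it was 0.687, 1.04, 0.834 and 0.973. The CDAHFD RIC samples are the lowest of all 19, but their highest (1.042) nearly equals NC sham sample 4 (1.048). They lie apart from CDAHFD sham, so within the diet the ratio of CHOP message to Trib3 message went from above 3 to about 1.

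**Figure D3:**
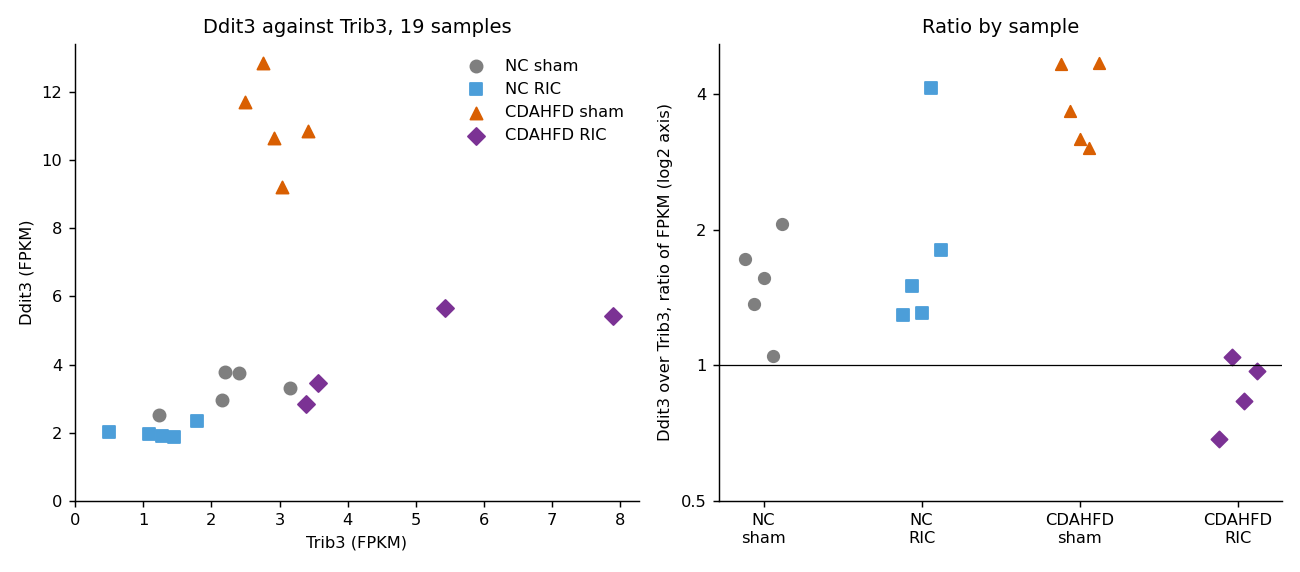
Left, Ddit3 against Trib3 in FPKM for the 19 samples, both axes starting at 0; right, the ratio of Ddit3 to Trib3 by group on a log2 axis, 1 point per sample. CDAHFD sham lies high in Ddit3 with Trib3 between 2.49 and 3.42 FPKM. The CDAHFD RIC ratios of 0.687 to 1.04 lie below those of the other groups, by a very small margin to NC sham sample 4.

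Opposite-strand neighbours limit how some members can be read, because the sources used here do not say whether counting used the strand. Exons of Ddit3 overlap those of Mars, which ran from 6.01 to 10.7 FPKM over all samples and did not pass in either RIC comparison or in the diet comparison in sham mice (adjusted p = 0.37 for RIC on CDAHFD and 0.18 for the diet), and those of Gm4189, which was at most 1.31 FPKM. The annotation also holds a second protein-coding entry named Ddit3 on the same strand, with exons that overlap those of the first. Whether the Ddit3 values count reads of both entries is not given in the sources used here. Exons of Atf5 overlap those of Nup62 and Il4i1 over 164 bases. Nup62 was far lower than Atf5, at 1.25 to 7.24 FPKM, but it rose with the diet (0.78, adjusted p = 3.3e-04) and fell after RIC on CDAHFD (-0.56, adjusted p = 0.026). Cebpb overlaps Tmem189 over 312 bases, and Tmem189 rose with the diet (1.15, adjusted p = 4.4e-07) to between 6.47 and 9.41 FPKM in CDAHFD sham. The neighbours of Eif2ak3 (Gm43292, at most 0.174 FPKM) and Ppp1r15a (Tulp2, at most 0.153 FPKM) were near 0.

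The promoters of the members were searched for short motifs of the pathway in RefSeq windows of GRCm38.p6, which reach from 250 bases before to 50 bases after each start site. The composite element bound by ATF4 with C/EBP family partners was written as TGATGNAA and searched on both strands. It was found for 3 of the 10 genes, Asns, Chac1 and Trib3, and in 3.97% of 32851 windows of all genes. The 3 sites are shown because these genes are textbook ATF4 targets. Each is printed 5′ to 3′ on the strand that carries the motif, with the motif in capitals.
Asns, chr6:7693214-7693243, minus strand: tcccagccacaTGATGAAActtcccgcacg
Chac1, chr2:119351038-119351067, minus strand: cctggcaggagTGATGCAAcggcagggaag
Trib3, chr2:152344028-152344057, plus strand: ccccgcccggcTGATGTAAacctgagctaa

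Distances depend on the annotated start. The Asns motif reads along the gene and lies 23 to 16 bases before the RefSeq start but 22 to 29 bases after the GENCODE start that bounds the gene above. That of Chac1 reads against the gene, 193 to 186 bases before the RefSeq start and 180 to 173 before the GENCODE start. That of Trib3 also reads against the gene, at bases 15 to 22 when the RefSeq start is counted as the first base. It lies 14 to 7 bases before the GENCODE start. The 3 motifs differ at the base written N. Beside them the levels differed: Asns rose with the diet and did not pass after RIC, Trib3 did not pass with the diet in sham mice and rose after RIC on CDAHFD, and Chac1 passed in neither. A cyclic AMP response element, TGACGTCA, was found for Ppp1r15a alone (1.79% of all windows), at chr7:45526262-45526291.
Ppp1r15a, minus strand: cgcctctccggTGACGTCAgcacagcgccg

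This motif reads the same on both strands and ends 5 bases before the Ppp1r15a start site in both annotations. The endoplasmic reticulum stress element, a CCAAT box and a CCACG box at a fixed distance, was in no window of the 10 genes and in 0.119% of all windows. These matches describe letters in the reference and not binding.

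The rest of the pathway was read from lists of genes beside the 10 members. Their counts are to be read against the shares over all genes tested, 63.9% risen and 10.3% fallen with the diet in sham mice, and 8.72% risen and 18.6% fallen after RIC on CDAHFD. Upstream of ATF4, of the 6 tested eIF2 kinases and regulators 5 rose and 1 fell with the diet, with a median of 0.34. This count depends on the scaling: none rose and 3 fell after median-ratio scaling, none rose and 2 fell after quantile normalization, and without CDAHFD sham samples 2 and 5 it was 3 risen and 1 fallen. Eif2ak1, the kinase of haem shortage and mitochondrial stress, rose 1.44-fold (log2 difference 0.45, adjusted p = 2.5e-05), and Eif2ak2, the kinase PKR that senses double-stranded RNA, rose 1.87-fold (0.67, adjusted p = 1.6e-04). Dnajc3, an inhibitor of PERK and PKR, was 1.48-fold lower (-0.56, adjusted p = 9.6e-04). The differences of Eif2ak1 and Eif2ak2 were -0.05 and 0.22 after median-ratio scaling and no longer passed. After RIC on CDAHFD 1 of the 6 fell, the adaptor Nck1 (-0.22, adjusted p = 0.047), and none rose. The Nck1 call was lost without CDAHFD sham samples 2 and 5 (-0.15, adjusted p = 0.20) and with median-ratio scaling (-0.13, adjusted p = 0.26), where Eif2ak1 passed as higher instead (0.22, adjusted p = 0.021).

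Of the 8 subunits of eIF2 and its exchange factor eIF2B, the target of the response, 7 rose with the diet and after RIC on CDAHFD 4 fell and 1 rose. Eif2b1 went from 7.97 ± 1.07 FPKM in NC sham to 12.7 ± 1.48 in CDAHFD sham and 8.89 ± 0.746 in CDAHFD RIC (-0.47 for RIC, adjusted p = 0.0034). Eif2b4 went from 6.87 ± 0.428 to 11.5 ± 1.56 and 7.74 ± 1.35 FPKM (-0.52, adjusted p = 0.0042). The median diet difference of the list, 0.59, was not far from that of all genes, and with median-ratio scaling 1 subunit rose and 2 fell. After RIC, 2 subunits fell and 1 rose without CDAHFD sham samples 2 and 5 and also with median-ratio scaling.

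Partners of ATF4 in the basic leucine zipper family included 2 further genes that were high in CDAHFD sham and lower in CDAHFD RIC. Atf3, which is induced by stress and by ATF4, was at 0.300 ± 0.202 FPKM in NC sham and 23.6 ± 2.87 in CDAHFD sham (log2 difference 4.25, adjusted p = 2.3e-14). It was at 10.4 ± 2.83 FPKM in CDAHFD RIC, 2.28-fold below CDAHFD sham (-1.14, adjusted p = 1.0e-04), with an interaction of -1.27 (adjusted p = 0.0023). Nfe2l2, which encodes the antioxidant regulator NRF2 and is also phosphorylated by PERK, went from 10.6 ± 1.24 to 41.1 ± 2.03 and 24.8 ± 2.51 FPKM (-0.71 for RIC, adjusted p = 4.1e-04). Of the 8 tested partners 4 rose with the diet, and after RIC on CDAHFD these 2 fell and none rose, shares no higher with the diet than that of all genes and near it after RIC. Both falls were also called without CDAHFD sham samples 2 and 5, where 1 other partner rose.

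Among the ATF4 targets of serine and one-carbon synthesis 4 of 7 rose with the diet and 1 fell, a share near that of all genes, and with median-ratio scaling 3 rose and 3 fell. Pck2, the mitochondrial phosphoenolpyruvate carboxykinase, was 7.22-fold higher (log2 difference 1.26, adjusted p = 5.3e-10) and Psph, which makes serine, 2.60-fold (0.77, adjusted p = 7.5e-07). After RIC Psph fell (-0.34, adjusted p = 0.021) and no other of the 7 passed. Psph did not pass with median-ratio scaling (-0.25, adjusted p = 0.059), and without CDAHFD sham samples 2 and 5 Pck2 fell as well (-0.27, adjusted p = 0.037). Of 4 tested amino acid transporters Slc3a2 (1.55, adjusted p = 7.7e-10) and Slc1a5 (1.09, adjusted p = 2.0e-08) rose with the diet while Slc38a2 (-0.59, adjusted p = 0.0014) and Slc6a9 (-0.50, adjusted p = 0.015) fell. After RIC on CDAHFD 2 of the 4 passed: the glutamine carrier Slc1a5 fell from 2.97 ± 0.291 to 1.24 ± 0.271 FPKM (-0.83, adjusted p = 6.9e-05), and the glycine carrier Slc6a9 rose from 2.52 ± 0.468 to 4.79 ± 1.99 FPKM (0.66, adjusted p = 0.015). Without CDAHFD sham samples 2 and 5 Slc6a9 passed neither after RIC (0.58, adjusted p = 0.055) nor with the diet (-0.42, adjusted p = 0.086), and Slc3a2 fell after RIC (-0.38, adjusted p = 0.047).

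Of 16 tested secreted and regulatory targets of ATF4 and CHOP 10 rose with the diet and 1 fell, near the share of all genes, and with median-ratio scaling 6 rose and 5 fell. Among the 10 were Gdf15, a stress hormone that lowers food intake (6.30-fold, log2 difference 2.07, adjusted p = 1.7e-08), Nupr1, a stress-induced chromatin factor (13.5-fold, 1.73, adjusted p = 4.0e-08), and Eif4ebp1, a brake on translation (2.37-fold, 1.16, adjusted p = 3.7e-10). After RIC on CDAHFD 2 fell, Vegfa (-0.48, adjusted p = 0.0026) and Cars (-0.44, adjusted p = 0.0034), and none rose, although 1 rose with median-ratio scaling. Fgf21, a liver hormone of the fasting and stress response, had a negative RIC difference on NC (-1.30, adjusted p = 0.046) and a positive interaction (1.54, adjusted p = 0.043). Both calls are marginal: the first was lost with quantile normalization (-1.21, adjusted p = 0.080) and the second without CDAHFD sham samples 2 and 5 (1.32, adjusted p = 0.067). Fgf21 was named after its values were seen, as the 1 gene of the pathway lists, beside Atf5 itself, that passed on NC.

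Of 20 cytosolic aminoacyl-tRNA synthetases, which charge tRNA and include many ATF4 targets, 15 rose and 2 fell with the diet, led by Gars (2.77-fold, log2 difference 1.37, adjusted p = 2.6e-10) and Vars (2.94-fold, 1.08, adjusted p = 1.8e-09). After RIC on CDAHFD 5 fell and 1 rose, which became 4 and 3 without CDAHFD sham samples 2 and 5 and 2 and 3 with median-ratio scaling. The list's diet median of 0.43 lay close to that of all genes, and after median-ratio scaling 5 rose and 5 fell. Of 8 mitochondrial stress genes 6 rose with the diet, with the protease Lonp1 2.11-fold higher (1.02, adjusted p = 5.1e-08). Their median of 0.30 lay below that of all genes, and with median-ratio scaling 1 rose and 5 fell (median -0.28). After RIC on CDAHFD Clpp and Hspe1 fell and Yme1l1 rose, and with median-ratio scaling 1 fell and 3 rose.

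The XBP1 and ATF6 arms of the unfolded protein response, which act beside PERK in the endoplasmic reticulum, held few genes that rose where Eif2ak3 and Ddit3 did. Of 17 tested genes 1 rose and 5 fell in CDAHFD sham, with a median of -0.08 beside 0.45 for all genes. Dnajb9, a chaperone induced by XBP1, was 2.13-fold lower (log2 difference -1.02, adjusted p = 7.2e-06), and Hsp90b1 was 1.49-fold lower (-0.56, adjusted p = 5.5e-04). With median-ratio scaling 14 fell and none rose. After RIC on CDAHFD Sdf2l1 (-1.13, adjusted p = 0.013), Creld2 (-1.01, adjusted p = 0.016) and Calr (-0.82, adjusted p = 0.011) were among 4 that fell, and Dnajb9 was among 2 that rose (0.58, adjusted p = 0.014). Without CDAHFD sham samples 2 and 5, 3 fell and 2 rose.

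Immediate early genes, which answer growth factors, stress and tissue handling quickly, had the largest median diet difference of the 10 lists. Of 15 tested 14 rose with the diet (median 1.49) and 10 fell after RIC on CDAHFD (median -0.64). Jun fell from 35.1 ± 4.50 to 13.8 ± 5.69 FPKM (-1.38, adjusted p = 0.0014) and Ier3 from 8.28 ± 1.58 to 2.86 ± 0.870 FPKM (-1.28, adjusted p = 1.9e-05). Without CDAHFD sham samples 2 and 5, 9 fell. These genes moved in the same groups as Ddit3 and Atf3, and their part in the Ddit3 result was not tested.

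**Figure D4:**
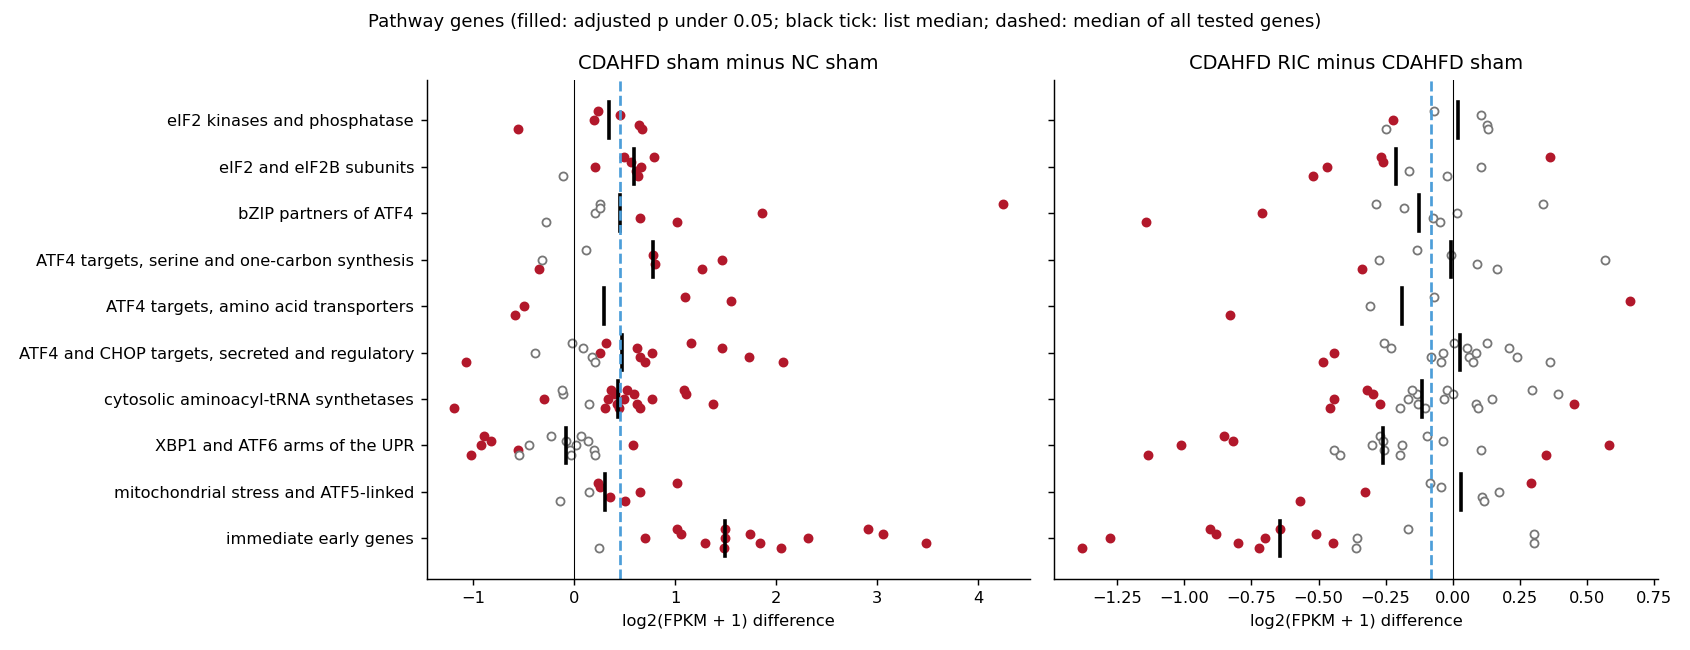
Log2(FPKM + 1) differences (horizontal axis) of the tested genes of 10 pathway lists (rows), for diet in sham mice on the left and RIC on CDAHFD on the right, which share the CDAHFD sham samples. Filled points passed at an adjusted p under 0.05, black ticks are list medians and the dashed line is the median of all genes tested, 0.45 and -0.08; immediate early genes lie at a median of 1.49 and -0.64.

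Members were also compared sample by sample inside the groups, as deviations of log2(FPKM + 1) from the group mean over the 19 samples, which share library and depth across genes. Of the 45 pairs 35 correlated above 0, with a median Pearson r of 0.24. Trib3 went with Sesn2 (r = 0.58, Spearman 0.80) and with Ddit3 (r = 0.60, Spearman 0.46). Within each group r was above 0 for Sesn2. For Ddit3 it was -0.48 within CDAHFD sham and 0.31 to 0.88 within the other groups. Leaving out CDAHFD RIC sample 1 and NC RIC sample 4, the farthest from the median of Trib3, gave 0.48 for Sesn2 and 0.60 for Ddit3.

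Trib3 and Asns, which are both ATF4 targets, ran against each other: r was -0.60 (Spearman -0.62), the lowest of the 45 pairs and the 1 pair below -0.5, and it was below 0 within each of the 4 groups. Without the same 2 samples it was -0.58, and with any 1 sample left out it stayed at -0.48 or lower. In NC sham, for example, the sample with the lowest Asns (0.717 FPKM) had the highest Trib3 (3.15 FPKM), and the sample with the highest Asns (4.74 FPKM) had the lowest Trib3 (1.23 FPKM). The same crossing was seen in NC RIC for sample 4, with 4.88 FPKM of Asns and 0.492 FPKM of Trib3. These correlations are descriptions, and genes of one sample are not independent.

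**Figure D5:**
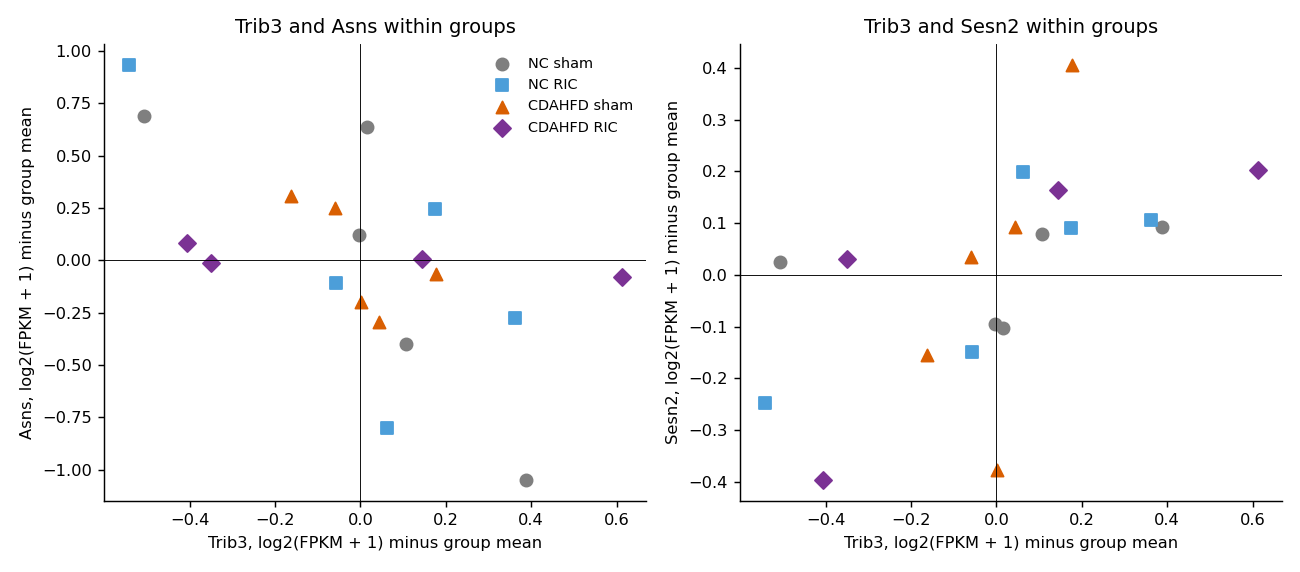
Deviations from the group mean of log2(FPKM + 1) for Trib3 (horizontal axes) against Asns (left) and Sesn2 (right), 19 samples, with symbols for the 4 groups. Trib3 and Asns run in opposite directions (r = -0.60) and Trib3 and Sesn2 in the same direction (r = 0.58).

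By the same measure over the 19 samples, the genes most like each member were not other members of the list, which were left out of the search. Nearest to Sesn2 was Maged2 (r = 0.92), to Atf5 Lgals9 (0.87), to Cebpb Por (0.85), to Trib3 Ube2d-ps, Foxo4 and Ocln (0.84, 0.82 and 0.81) and to Eif2ak3 Nhlrc3 (0.81). Ddit3 had Hacd2 (0.79), Cdhr5 (0.79) and Arl6ip6 (0.78) nearest, and Atf4 had mt-Tr (0.83) and Cpne1 (0.82). Asns had Kctd15 (0.80) nearest, and Ppp1r15a had the predicted gene Gm15920 (0.88). With 10577 genes to search, values of this size are the top of a long ranking and are given as a description.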

How the data were processed

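Liver RNA of 19 mouse samples was sequenced, and groups were taken from the sample titles. Per the labels' protocols, RNA came from a Trizol extraction and the library kit was VAHTS Universal. The submitters' processing notes list HISAT2 2.2.1, Trimmomatic 0.38, FastQC 0.11.9, HTSeq 0.13.5, R 3.4.1, DESeq2 1.18.1 and mm10, without roles. Expression was deposited as FPKM, in 1 table with a column for each sample. How the authors computed the FPKM, with which annotation and strand setting, is not given in the sources used here.

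Entries without a name (3225, holding 0.123% to 0.204% of the FPKM) were left out. Count models were not applied to FPKM. The scale was log2(FPKM + 1), with a filter at a mean of 1 FPKM, and tested with limma 3.58.1 in R 4.3.3: 1 mean per group over all 19 samples, a trend in the variance, two-sided, with p adjusted after Benjamini and Hochberg across the genes tested, at a threshold of 0.05. Chac1 was read from the same fit without the filter. The script was tested on simulated data. Alternatives were a pseudocount of 0.1, no filter, median-ratio scaling, quantile normalization, a common sum, array weights, a replicate block, only the 2 groups compared, and samples left out; those for Chac1, for correlations and for list counts were chosen after seeing the data.

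Depth was estimated by taking the commonest low value of single-exon genes as 1 read. Only 11.6% to 14.4% of the other low values came within 0.02 of whole reads, where 4% would do so if spread evenly, so counts could not be rebuilt and depth stays an estimate. No 2 samples were duplicates. Positions came from the GENCODE annotation of mm10 by symbol, and promoter windows from RefSeq (GRCm38.p6). Plots used matplotlib 3.10.9, tables pandas 2.3.3 and numpy 2.4.6 in python 3.11.15.

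The members, the gene lists and the rules were chosen with earlier results of these data known. All 10 members are named in each comparison. From each pathway list, counts are given and up to 4 genes could be named that had the smallest adjusted p among those that passed for diet in sham mice or for RIC on CDAHFD; which of these to print, and the interaction values beside them, were chosen after their values were seen. For likeness the 3 genes with the highest correlation could be named. Tf, a listed hepatocyte marker, and 1 listed mitochondrial gene were not analysed here.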

Additional observations from a re-analysis of the deposited data

Results flagged for a closer look

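Trib3 differed between the diets in its response to RIC: the interaction was 1.12 on the log2 scale, with a RIC difference of -0.54 on NC and 0.57 on CDAHFD. Ddit3 differed as well, with an interaction of -0.72, from -0.49 on NC and -1.21 on CDAHFD. The Trib3 call was lost in 1 of 8 other ways of processing and the Ddit3 call in 4 of 8. No sample of the 40 groups of values, 10 genes in 4 groups, stood apart from the rest of its group by Dixon's test, where chance alone would flag about 1 in 20.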

How the results depend on the processing

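Over the alternatives and left-out samples 909 values of the members were recomputed. Of these 827 kept their side of the threshold, with no change of sign in a called value. Among the 827 were 40 values, called in neither fit, whose sign differed. A further 55 lost a call, 23 gained one and 4 with a call in at least 1 of the fits changed sign. The 4 were Atf5 (-0.49) and Atf4 (-0.23) for diet in sham mice and Atf4 (-0.33) for diet in RIC mice, all with median-ratio scaling, and Sesn2 (-0.075) for diet in RIC mice with quantile normalization. Both scalings set the median of all genes near 0, which by construction removes the shift of 0.45. With them the share of higher genes among those called went from 86.1% to 50% and 47.6% for diet in sham mice, from 90.5% to 50.7% and 47.2% for diet in RIC mice, from 31.9% to 55.8% and 50.5% for RIC on CDAHFD, and from 27.2% to 62.2% and 64.4% for RIC on NC. A common sum gave 56.8% for RIC on CDAHFD, 15.9% for RIC on NC and 83.0% for the interaction, against 53.4%. For the other changes below the cause was not tested.

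Without a filter 12361 genes were called for diet in sham mice, where more genes were tested. Chac1 passed there with median-ratio scaling (-0.56), quantile normalization (-0.71) and only the 2 groups (-0.40). For RIC on CDAHFD a pseudocount of 0.1 called 1 member, and only the 2 groups called 1868 genes. For RIC on NC a pseudocount of 0.1 and array weights each called 2 members, and median-ratio scaling, quantile normalization, the replicate block, only the 2 groups and no filter each called 0. Of all genes these called 59 with quantile normalization, 401 with array weights, 46 with only the 2 groups and 48 without a filter, against 125. For diet in RIC mice quantile normalization called 3 members. In the interaction a pseudocount of 0.1 called 1 member and no filter 0, and 1266 genes passed without CDAHFD sham samples 2 and 5.

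With 1 sample left out, members called ran from 1 to 3 for RIC on CDAHFD, from 0 to 1 for RIC on NC and from 1 to 2 for the interaction, and genes called from 13 to 184 for RIC on NC and from 438 to 1042 for the interaction. Correlations ran from 0.40 to 0.55 (Atf4 and Asns), 0.49 to 0.68 (Ddit3 and Trib3), -0.70 to -0.48 (Trib3 and Asns), 0.49 to 0.67 (Chac1 and Sesn2) and 0.37 to 0.73 (Chac1 and Eif2ak3).

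The replicate numbers were not taken to pair the samples, and the correlations do not settle whether they do. Same-number correlations ran from -0.174 to 0.176 and 6 of 27 were above 0.1, beside 14 of 108 with different numbers. As a hint from the data, 19 of 54 correlated best with their own number, where an even spread gives 11.4. With the replicate block 79 genes and 0 members were called for RIC on NC. It called 5 members for diet in sham mice, 2 for RIC on CDAHFD, 7 for diet in RIC mice and 2 for the interaction, against 5, 3, 7 and 2.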
